A study of Mus musculus with 12 samples.

Results

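Cluster 26 is a macrophage cluster of MC38 tumors: 17007 of the 93126 sequenced cells (18.3%) carried this number in the authors' own clustering, which made it 25.0% of the 68059 cells in the 10 macrophage clusters. The members were chosen by that cluster number alone. MC38 is a mouse colon carcinoma line, grown here under the skin of female F1 hosts from crosses of C57BL/6J (B6) with strains of the Collaborative Cross (CC), or of B6 hosts. Each host received 1 dose of 200 µg of isotype control antibody (2A3) or of the PD-1 blocking antibody 29F.1A12 (aPD1), and its tumor was taken 48 h later and frozen; after thawing, single cells were sorted toward CD45+ cells and sequenced in 12 pools, each with tumors of both treatments from 2 strains. Hosts of the CC001, CC002 and CC075 strains, which the study classed as responders to aPD1, gave 10 isotype and 10 aPD1 tumors, and hosts of CC036, CC079 and CC080, classed as non-responders, gave 9 and 9. The class comes from the study and not from the sample labels, and B6 and CC007 hosts (10 tumors) stand in neither class. The hashtags of isotype tumors were never used for aPD1 tumors, so hashtag and treatment cannot be told apart. A class stands for 3 strains, so it cannot be told apart from other differences between those strains. CC079 tumors came only from pools 1, 2 and 5, CC036 tumors from pools 8 to 10 and CC075 tumors from pools 9 to 11. Differences between strains that shared no pool cannot be told apart from differences between pools. An animal identifier occurs on 2 tumors of CC080, 1 isotype and 1 aPD1, which were counted as separate tumors. Without both, 606 in place of 724 genes passed between classes in aPD1 tumors, and 6 of the 77 named calls between classes were lost (Cd86, Fcgr1, Cbr2, Nos2, Acod1 and Ptgs2). The classed tumors held 25 to 944 cells of cluster 26 each, with 116445 to 5214348 summed counts, and the fewest, 25 and 37 cells, came from 1 isotype tumor of CC002 and 1 of CC036.

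Macrophages take up and digest cells and debris, make the C1q subunits of the complement cascade, and present peptides to T cells on MHC class I and class II molecules. In tumors many of them descend from blood monocytes, which lose Ly6c2 and gain C1q genes as they mature. Interferon gamma (IFN-γ), a cytokine of activated T and NK cells, acts on macrophages, and its known targets include the class II transactivator Ciita, the guanylate-binding proteins, the T cell attractant Cxcl9 and the PD-1 ligand Cd274. Levels below are counts of unique molecular identifiers (UMIs), summed over the cells of cluster 26 in a tumor and scaled to a total of 1000000 per tumor (CPM).

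The label was checked against C1qa, a C1q subunit, Apoe, a lipid carrier, and Adgre1, the F4/80 antigen. In the 47 tumors with at least 20 cells of the cluster, C1qa lay between 2038 and 4658 CPM (median 2950.3), against 675 to 2032 CPM (median 1165) in the other 9 macrophage clusters of the same tumors. Apoe lay between 2973 and 18258 CPM (median 5923) and Adgre1 between 152 and 320.4 CPM (median 237). All 3 genes were higher in cluster 26 than in the other macrophages in 47 of 47 tumors. Of the 13 genes of the macrophage identity list, these 3 among them, 8 were higher on average and 5 lower. The clusters were built from these genes, so this and the other differences between clusters are a description with no test. Over the pooled cells C1qa was highest in cluster 26 (3237 CPM, next 2555 in cluster 9), whereas Apoe was higher in cluster 9 (9407 against 6755 CPM) and Adgre1 in clusters 19 and 9. The cells had a median of 4383 UMIs and 1813 genes, and 1.77% mitochondrial and 17.2% ribosomal protein gene UMIs. A T or NK cell marker UMI was present in 1.78% of them, against 1.42 to 5.46% of the cells in the other macrophage clusters. Of all cell barcodes, 4990 occurred in more than 1 library. Such a barcode was carried by 1899 of the 17007 cells of cluster 26 and by 10176 of all 93126 cells.

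The genes that stood highest in cluster 26 included the C1q subunits C1qa and C1qc. The ranking used the mean over 47 tumors of the log2 ratio of CPM in cluster 26 to CPM in the other macrophages, with 10 CPM added to both. Fcrls, an Fc receptor-like gene, led with 1.75 ± 0.75 (SD) and was higher in 46 of 47 tumors. Ms4a7, a tetraspanning membrane protein of macrophages, followed with 1.69 ± 0.48, from 471 to 1454 CPM (median 884) against a median of 247 CPM. Next stood Hpgds, the hematopoietic prostaglandin D synthase (1.58 ± 0.40), Olfml3 (1.54 ± 0.38), Igfbp4 (1.52 ± 0.36) and Ch25h, the cholesterol 25-hydroxylase (1.51 ± 0.39). These 5 genes were higher in 47 of 47 tumors. The chemokine Ccl8 varied most (1.49 ± 1.08, 43 of 47 tumors) and was far higher in cluster 9 (2449.6 CPM) than in cluster 26 (216 CPM). C1qc (1.42 ± 0.28), Ccl12 (1.38 ± 0.40), the fractalkine receptor Cx3cr1 (1.23 ± 0.27) and Cd81 (1.28 ± 0.34) also stood among the 15 highest, as did the mitotic cyclin Ccnb2 (1.36 ± 0.51) and Cadm1 (1.40 ± 0.50), an adhesion molecule that also marks conventional dendritic cells of type 1 (cDC1). Over the pooled cells Igfbp4 was higher in cluster 9 (190 against 118 CPM in cluster 26), Cadm1 in cluster 19 (432 against 188 CPM) and Ccl12 in cluster 21 (1308 against 990 CPM). Cd81 (354 against 312 CPM) and Ccnb2 (83.1 against 58.6 CPM) were higher in cluster 17.

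Genes of the monocyte and inflammatory lists stood among the lowest. Plac8 lay between 9.01 and 352 CPM (median 53.9) in cluster 26 and between 257 and 2175 CPM (median 769) in the other macrophages, a mean log2 ratio of −3.46 ± 0.83. Ly6c2, the monocyte antigen, had a ratio of −2.83 ± 0.80, Chil3 of −2.29 ± 0.75 and Ly6i of −2.03 ± 0.74. Il1b, the gene of interleukin-1 beta, averaged 329.6 CPM against 1456 CPM (−2.17 ± 0.45), and the antiviral gene Rsad2 23.9 against 124 CPM (−2.09 ± 0.66). Each of the 15 lowest genes, among them Thbs1, Mmp12, Slpi, Osm and Clec4e, was lower in cluster 26 in 47 of 47 tumors. The histone gene Hist1h1b was low (−1.83 ± 0.79) beside the high Ccnb2, and its level was highest in cluster 17 (939 CPM).

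**Figure D1:**
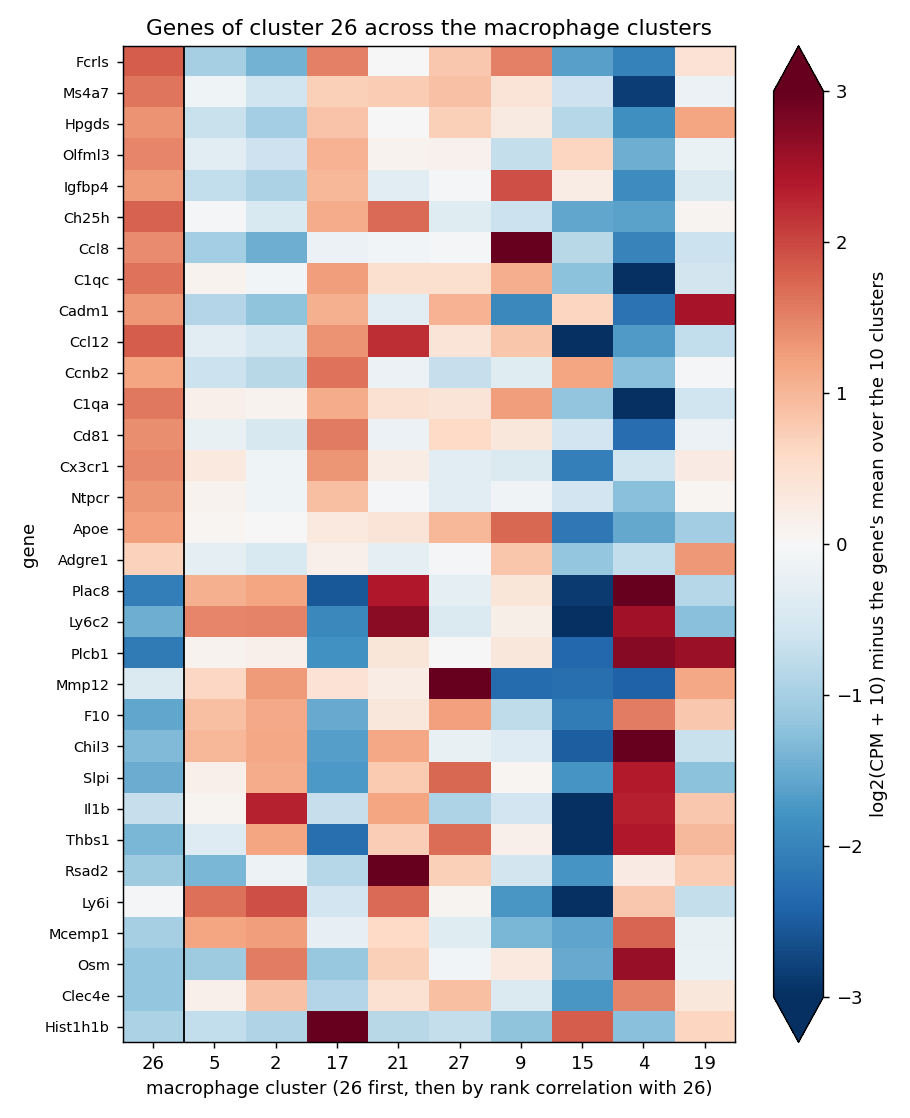
Rows are the 15 genes highest in cluster 26, the markers Apoe and Adgre1, and the 15 genes lowest in it; columns are the 10 macrophage clusters, and the color is log2(CPM + 10) minus the gene's mean over the clusters. The upper genes are red in cluster 26 and in part in clusters 17 and 9, and Plac8, Ly6c2 and Chil3 are blue in clusters 26 and 17 and red in clusters 2, 4, 5 and 21.

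Gene lists were compared in the same way. Of 3315 genes that reached 50 CPM in either set of cells, 1782 were higher in cluster 26 and the median log2 ratio was 0.02. Of 13 macrophage identity genes 8 were higher and 5 lower (median 0.40), and of 10 complement genes 5 and 5 (0.08). Of 6 resident-like genes at this level 5 were higher (median 0.91): Mrc1, the mannose receptor, had 332 CPM and the scavenger receptor Stab1 228 CPM in the pooled cells. Lyve1 (0.551 CPM) and Cd163 (2.34 CPM), which mark perivascular resident macrophages, were near 0 there and reached 224 and 125 CPM in cluster 9. Of 15 lysosome genes 13 were higher (median 0.29), of 9 cell cycle genes 8 (0.28) and of 13 lipid-associated genes 8 (0.28). Of 8 monocyte genes 1 was higher (median −1.87), of 12 inflammatory genes 1 (−0.79), and of 11 type I interferon antiviral genes 0 (−0.83). No gene of the hypoxia and glycolysis list (0 of 15, median −0.53) or of the immediate early and heat shock list (0 of 12, −0.56) was higher. MHC class II genes (1 of 9 higher, median −0.30) and interferon-inducible GTPases (1 of 10, −0.26) stood slightly below the other macrophages. So did the genes of the IFN-γ signature used below (2 of 9 higher and 7 lower, median −0.30). By rank correlation of pooled CPM over 5195 genes of at least 50 CPM, cluster 26 was most like cluster 5 (Spearman's rho 0.935), then cluster 2 (0.910) and cluster 17 (0.897), and least like cluster 19 (0.565). These values are across genes, which are not independent replicates. Clusters 26, 5 and 2 were the 3 that the study singled out as holding most of the macrophages with a high IFN-γ signature in these same tumors. They were also the largest, with 25.0, 17.7 and 27.9% of all macrophages.

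The first comparison was of the abundance of the cluster between classes and treatments, by an exact permutation test of the rank sum. The share of cluster 26 among macrophages was 29.7 ± 11.5% (SD, n = 10; 10.6 to 44.3%, median 27.9%) in responder isotype tumors and 21.6 ± 11.7% (n = 9; 7.43 to 39.4%, median 20.1%) in non-responder isotype tumors. In aPD1 tumors it was 26.9 ± 9.49% (12.6 to 41.5%, median 24.8%) and 22.8 ± 7.74% (12.9 to 37.9%, median 21.5%). The groups overlapped, and neither difference passed the test (exact two-sided p = 0.182 and 0.447, adjusted over the 20 tests of the 4 values per tumor 0.456 and 0.637). None of the 10 comparisons of the share, of macrophages or of all cells, passed, with adjusted p from the permutation tests between 0.447 and 0.666 for the share of all cells. Among the strains CC001 stood apart by its values: 40.3 ± 7.08% of macrophages in 4 isotype tumors and 23.3 ± 9.93% in 4 aPD1 tumors. In CC002 (25.5 ± 7.96% and 32.1 ± 10.4%, 3 tumors each) and CC075 (19.9 ± 8.22% and 26.3 ± 9.04%) the aPD1 mean was the higher one. Leaving out CC001 turned the sign of the aPD1 difference in responder strains from −2.87 to 6.50 percentage points; neither passed.

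**Figure D2:**
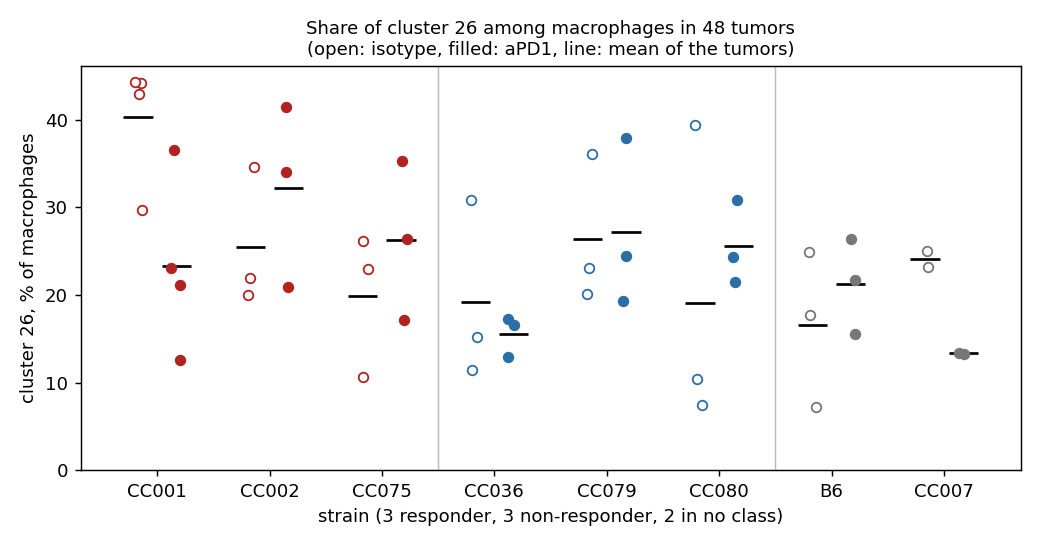
Each point is the share of cluster 26 among the macrophages of 1 tumor (percent, from 0), by strain; open points are isotype tumors, filled points aPD1 tumors, and lines are means. The points of the responder, non-responder and unclassed strains overlap, and the CC001 isotype tumors reach 44.3%.

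The second comparison asked how the cells of cluster 26 differed in a signature related to IFN-γ. The signature was the mean over 18 genes, mouse counterparts of a published IFN-γ profile, of log2(CPM + 1). Of these, 7 are T and NK genes (Cd27, Cd8a, Cxcr6, Lag3, Nkg7, Tigit and Ccl5), so the signature is not a measure of macrophage genes alone. Only 11 of the 18 reached the level needed for the test of single genes. For responder strains under aPD1 it was 5.23 ± 0.26 (SD, n = 10; 4.78 to 5.63, median 5.18) and for non-responder strains 4.39 ± 0.29 (n = 9; 3.90 to 4.78, median 4.41). All 10 responder values exceeded all 9 non-responder values, by a difference of means of 0.84 (exact p = 2.17e-05, the smallest this design allows, adjusted 0.000433). The groups nearly touched, at 4.784 in a CC001 tumor and 4.782 in a CC036 tumor. In the 8 pairs of a responder and a non-responder aPD1 tumor from the same pool the responder tumor was higher 8 times. With the pool as a block the difference was 0.88 (exact sign flips p = 0.00781, the smallest that 8 pairs allow, adjusted 0.0521). In isotype tumors the groups overlapped (4.86 ± 0.22 against 4.67 ± 0.53, exact p = 0.243). In the other macrophages of the same aPD1 tumors the signature lay at 5.05 to 5.92 in responder and 4.43 to 4.88 in non-responder strains. The classes thus did not overlap there either, and the gap was not tested against that in cluster 26. The study chose this signature and these clusters on the same tumors, so the difference between classes is not independent evidence. With strains as the unit, 3 against 3, an exact test cannot go below p = 0.10. The strain means in aPD1 tumors were 5.15 ± 0.35 in CC001 (4 tumors), 5.15 ± 0.07 in CC002 and 5.41 ± 0.18 in CC075, and 4.68 ± 0.09 in CC036, 4.09 ± 0.22 in CC079 and 4.40 ± 0.08 in CC080 (3 tumors each), so the strain means of the classes did not overlap.

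Between treatments, the signature was higher in aPD1 than in isotype tumors of responder strains by 0.37 (permutation p = 0.00925, adjusted 0.0462). It was higher in 9 of 10 pairs of the same strain and pool (exact sign flips over these pairs p = 0.00391, adjusted 0.0521). In non-responder strains the aPD1 tumors were lower by 0.28 on average, which did not pass (exact p = 0.489, adjusted 0.637), and 2 of 9 pairs were higher. The aPD1 effect was larger in responder strains by 0.65 (exact p = 0.0021, adjusted 0.014), and by 0.58 with the pool as a block (adjusted p = 0.0781, exact sign flips). The responder effect alone stood close to the threshold: it no longer passed with a pseudocount of 10 (0.29), without the 3 MHC genes of the signature (0.36), or when any of 5 of the 6 strains was left out (0.32 to 0.46 over the 6 strains). Only responder tumors enter this effect, so leaving out a non-responder strain kept it at 0.37 and moved only the adjustment over the 20 tests. In the other macrophages of responder tumors the signature lay at 4.44 to 5.47 under isotype and 5.05 to 5.92 under aPD1, which was not tested.

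Cxcl9 was also read per cell. Cells were thinned to 1000 UMIs, which left out 0.731 to 1.79% of the cells of a group, so that the share of cells with a Cxcl9 UMI does not move with depth. In aPD1 tumors of responder strains this share was 40.4 ± 13.3% (SD, n = 10; 18.03 to 66.7%, median 40.4%), and of non-responder strains 14.1 ± 7.81% (n = 9; 7.03 to 28.1%, median 10.9%). Of the 10 responder values 8 exceeded all 9 non-responder values (exact p = 0.00026, adjusted 0.0026). With the pool as a block the difference was 29.0 percentage points (exact sign flips p = 0.00781, the smallest that 8 pairs allow, adjusted 0.0521). In isotype tumors it was 31.0 ± 11.8% and 23.7 ± 16.6%, which overlapped (exact p = 0.400). The difference of the treatment effects (18.9 percentage points) missed the threshold after adjustment (exact p = 0.0279, adjusted 0.112). Non-responder strains were not alike: CC079 stood at 9.72 ± 1.31% in isotype and 10.0 ± 2.33% in aPD1 tumors, whereas CC036 stood at 35.1 ± 16.0% and 23.95 ± 3.98% and CC080 at 26.3 ± 18.7% and 8.48 ± 2.10%. Over all tumors the share was 27.9% in cluster 26 (41.1% without thinning, median 4383 UMIs), 25.4% in cluster 2 and 29.4% in cluster 5. In the T/NK cells of clusters 3, 7, 8, 10 and 13, which should lack the transcript, it was 1.36% (2.85% without thinning, median 1860 UMIs). This was taken as the background, and the other T/NK clusters were not part of it. Free RNA and doublets, which both could give such counts, were not tested.

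**Figure D3:**
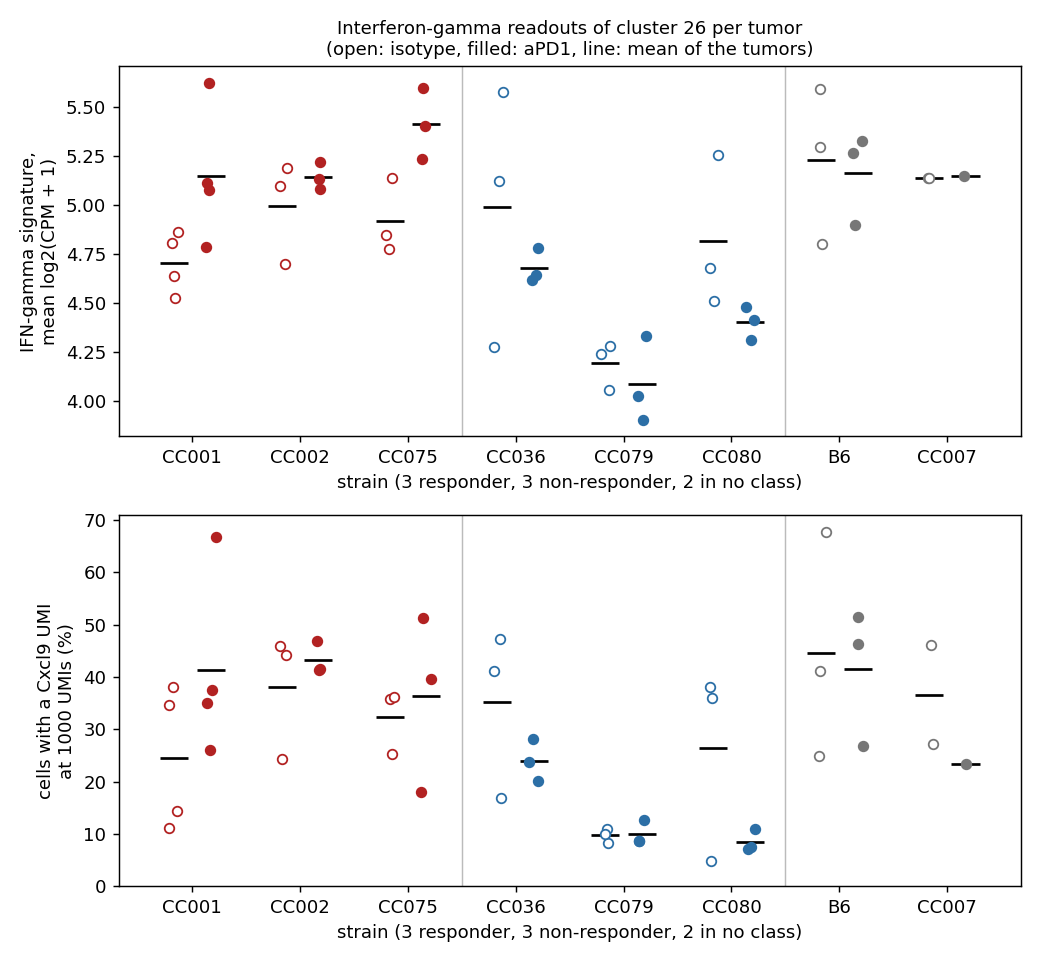
The upper panel gives the IFN-γ signature of cluster 26 (mean of log2(CPM + 1) over 18 genes) and the lower panel the percentage of its cells with a Cxcl9 UMI after thinning to 1000 UMIs, 1 point per tumor, by strain; open points are isotype tumors, filled points aPD1 tumors, and lines are means. The filled points of the 3 responder strains lie at 4.784 to 5.63 in the upper panel and those of the 3 non-responder strains at 3.90 to 4.782.

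The last readout of this kind was the relation of the signature to Ifng in the whole tumor. For it, T and NK genes were left out of the signature, and Ifng was log2(CPM + 1) over all cells of a tumor. Across responder tumors Pearson's r was 0.559 and Spearman's rho 0.689 (n = 20; permutation p = 0.0100 for r and 0.0010 for rho, adjusted 0.0133 for r over 4 relations), and r was 0.555 without the 2 tumors farthest from the median Ifng. Across non-responder tumors r was 0.861 and rho 0.841 (n = 18; permutation p = 2.0e-05 and 9.0e-05, adjusted 8e-05 for r), and r was 0.733 without 2 tumors. These permutations treat the tumors of a class as exchangeable, although strains differed in both values. The CC079 tumors had Ifng at 0.80 to 2.81 and the signature of 18 genes at 3.90 to 4.33, against 4.25 to 7.78 and 4.28 to 5.58 in CC036. A relation within strains was not tested. Within pools 1 to 5 r was 0.582 (responder) and 0.934 (non-responder strains), and within pools 8 to 12 it was 0.512 and 0.668, the last falling to 0.0624 without its 2 farthest tumors. Within the 10 aPD1 tumors of responder strains r was 0.465, and 0.141 without 2 tumors. The share of cluster 26 among macrophages was lower at higher Ifng in non-responder tumors (r = −0.594, rho = −0.659; permutation p = 0.00972 and 0.00348, adjusted 0.0133), and r was −0.464 (permutation p = 0.0709) without the 2 farthest tumors. Within the 9 aPD1 tumors of these strains it was −0.661 (permutation p = 0.0498), and −0.720 without 2, and within the 9 isotype tumors −0.567 (permutation p = 0.112), and −0.285 without 2. Within pools 1 to 5 it was −0.501 (10 tumors, permutation p = 0.139) and within pools 8 to 12 −0.359 (8 tumors, permutation p = 0.377), and without the 2 farthest tumors of each it turned positive (0.271 and 0.185). In responder tumors it was −0.298 (rho −0.367; permutation p = 0.201 and 0.113), with −0.533 (rho −0.709; permutation p = 0.114 and 0.0260) within the 10 isotype tumors and 0.120 (rho 0.139; permutation p = 0.741 and 0.706) within the 10 aPD1 tumors. Strains differed in the share too: its mean in non-responder aPD1 tumors was 15.6% in CC036, 27.2% in CC079 and 25.5% in CC080. A relation of the share to Ifng within strains was not tested.

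Genes were then compared between groups with edgeR's quasi-likelihood test on the summed counts of cluster 26 in 38 tumors, adjusted over 9882 genes. In aPD1 tumors 496 genes (5.02%) were higher and 228 (2.31%) lower in responder than in non-responder strains at an adjusted p under 0.05. These fits used TMM, which scales the libraries so that most genes keep their level. Scaled by library size in place of TMM, 345 were higher and 663 lower, with a median of all genes of −0.11 on the log2 scale in place of −0.01, so the balance of the directions depends on the scaling. Of all genes 0.253% had every responder tumor above every non-responder tumor, and 0.314% every tumor below. With the tumors of each strain and treatment summed, so that 3 strains stood against 3, 8 genes passed in all, and 4 of the 67 genes named here: Acsl1, Gm10260, Gm11127 and Gm11361. The other values below therefore measure spread between tumors of these 6 strains. Folds are log2 changes, responder over non-responder, with their standard error (SE), and ranges are over the 10 responder and 9 non-responder aPD1 tumors.

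MHC class II genes, which present peptides to CD4 T cells, were higher in responder strains. Of 11 tested genes 9 were higher and 1 lower, with a median log2 fold change of 1.40 (−0.01 over all genes) and of 0.67 in the other macrophages of the same tumors. H2-Eb1, a class II beta chain, ranged over 2758 to 7460.3 CPM (median 4324) in the responder and 276 to 2369 CPM (median 1027) in the non-responder tumors (log2 fold change 2.08 ± 0.32 (SE), adjusted p = 5.27e-05). H2-Ab1, another beta chain, ranged over 2660 to 6824 CPM (median 3712) in the responder and 335 to 1989 CPM (median 1203) in the non-responder tumors (log2 fold change 1.65 ± 0.30 (SE), adjusted p = 0.000497). For both genes the lowest responder value exceeded the highest non-responder value. Cd74, the invariant chain that escorts class II molecules, ranged over 8757 to 19149 CPM (median 11639.6) in the responder and 1618 to 7096 CPM (median 4912) in the non-responder tumors (log2 fold change 1.40 ± 0.25 (SE), adjusted p = 0.000421), and Ciita, the transactivator of these genes, over 35.5 to 124 CPM (median 64.2) in the responder and 4.83 to 35.2 CPM (median 21.3) in the non-responder tumors (log2 fold change 1.86 ± 0.35 (SE), adjusted p = 0.000663). Their groups did not overlap either. The alpha chain H2-Aa (1.48 ± 0.30), the peptide loaders H2-DMa (0.86 ± 0.19) and H2-DMb1 (1.27 ± 0.22), H2-Ob (1.52 ± 0.33) and the protease Ctss (0.54 ± 0.12) rose as well. H2-DMb2, the twin of H2-DMb1, fell: 7.41 to 20.8 CPM (median 14.3) in the responder and 16.0 to 95.3 CPM (median 30.1) in the non-responder tumors (log2 fold change −1.43 ± 0.30 (SE), adjusted p = 0.00149). Strains carry different MHC haplotypes while all reads were aligned to 1 reference, so differences of H2 genes can hold a part from alignment, which was not tested; Cd74 and Ciita lie outside the MHC.

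The promoters of 3 genes of these groups are shown to place the letters of known interferon and class II elements: H2-Eb1, the GTPase Gbp5 and Cxcl9. Each is the 300 bases from 250 before the start of the gene, from RefSeq on GRCm38.p6, 5′ to 3′ on the gene's strand. Capitals mark a match to TTCNNNGAA, letters known from interferon-responsive promoters, or to CCAAT on either strand, the box bound by NF-Y. Of all 32851 promoters of this length 8.30% held the first and 37.4% the second.
H2-Eb1, chr17:34305617-34305916, plus strand: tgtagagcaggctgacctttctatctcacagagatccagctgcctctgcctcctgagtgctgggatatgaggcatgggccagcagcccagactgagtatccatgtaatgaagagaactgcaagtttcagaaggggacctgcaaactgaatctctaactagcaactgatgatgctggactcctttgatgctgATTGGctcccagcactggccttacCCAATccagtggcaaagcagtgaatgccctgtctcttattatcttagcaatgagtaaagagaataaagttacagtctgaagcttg
Gbp5, chr3:142496684-142496983, plus strand: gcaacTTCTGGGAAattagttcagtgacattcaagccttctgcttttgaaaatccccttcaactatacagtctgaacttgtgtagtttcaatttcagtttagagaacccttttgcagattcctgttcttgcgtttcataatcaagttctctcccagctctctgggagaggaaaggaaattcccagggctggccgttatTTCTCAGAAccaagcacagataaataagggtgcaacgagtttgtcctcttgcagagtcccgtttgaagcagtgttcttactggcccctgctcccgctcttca
Cxcl9, chr5:92328030-92328329, minus strand: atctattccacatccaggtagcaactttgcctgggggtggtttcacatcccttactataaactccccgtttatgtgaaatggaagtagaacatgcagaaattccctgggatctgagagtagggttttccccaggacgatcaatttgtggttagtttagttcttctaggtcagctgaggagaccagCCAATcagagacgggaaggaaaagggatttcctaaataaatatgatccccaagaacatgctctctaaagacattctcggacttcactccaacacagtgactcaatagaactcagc
H2-Eb1 held 2 CCAAT boxes, Gbp5 2 matches to TTCNNNGAA, and Cxcl9 1 CCAAT box and no TTCNNNGAA in this window. Of the 9 class II list genes with a promoter at hand 1 held TTCNNNGAA and 6 CCAAT; of 10 interferon-inducible GTPases 6 and 2 did, and of 3 genes of the chemokine list 0 and 2. A match is a description of the letters and not of a bound site.

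Class I presentation genes, which show peptides to CD8 T cells, were higher as well. Of 12 tested genes 9 were higher and 0 lower (median 0.53, and 0.46 in the other macrophages). Tap1, a peptide transporter, ranged over 90.3 to 161 CPM (median 120.4) in the responder and 43.0 to 102 CPM (median 63.4) in the non-responder tumors (log2 fold change 1.07 ± 0.18 (SE), adjusted p = 0.000164). The immunoproteasome subunit Psmb9 ranged over 255 to 400.4 CPM (median 300.5) in the responder and 162 to 222 CPM (median 188) in the non-responder tumors (log2 fold change 0.77 ± 0.14 (SE), adjusted p = 0.000517), with no overlap of the groups. B2m, the class I light chain, rose by 0.50 ± 0.10, H2-D1 by 0.53 ± 0.10 and Psmb8 by 0.67 ± 0.15. The non-classical class I genes H2-T23 (1.31 ± 0.24) and H2-Q7 (1.08 ± 0.16) rose with no overlap, whereas H2-Q1 and H2-Q2 were at 0 to 0.533 CPM in responder and at 2.20 to 61.3 CPM in non-responder tumors, as far as 1 reference can show genes of this family.

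Interferon-inducible GTPases, which act against pathogens inside cells, were higher for 13 of 14 tested (median 1.17, and 0.87 in the other macrophages). Gbp5 ranged over 35.5 to 147 CPM (median 61.1) in the responder and 13.3 to 54.3 CPM (median 22.0) in the non-responder tumors (log2 fold change 1.64 ± 0.36 (SE), adjusted p = 0.00312), and Tgtp2 over 18.1 to 42.1 CPM (median 26.1) in the responder and 3.07 to 17.6 CPM (median 12.0) in the non-responder tumors (log2 fold change 1.35 ± 0.31 (SE), adjusted p = 0.00367). For Gbp5 6 and for Tgtp2 all 10 responder values exceeded the highest non-responder value. Gbp4 (1.73 ± 0.34), Gbp2 (1.43 ± 0.38) and Iigp1 (1.59 ± 0.40) also rose. Of 15 type I interferon antiviral genes 6 rose (median 0.68, against 0.20 in the other macrophages), among them Ifit2 (1.32 ± 0.24), Ifi44 (2.09 ± 0.46) and Rsad2 (1.86 ± 0.52). Of 9 interferon transcription factors 5 rose (median 0.60), among them Batf2 (1.33 ± 0.30), Irf1 (1.01 ± 0.27) and Irf8 (0.53 ± 0.11).

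Of 5 tested chemokines of the list of Cxcr3 ligands and other T cell and monocyte attractants (Cxcl9, Cxcl10, Cxcl16, Ccl5 and Ccl8) 3 rose (median 1.21). Cxcl9 ranged over 863 to 3670.2 CPM (median 1604) in the responder and 183 to 1149 CPM (median 334) in the non-responder tumors (log2 fold change 2.00 ± 0.41 (SE), adjusted p = 0.00139), and Ccl5, which T and NK cells also make, over 116 to 1909.7 CPM (median 383) in the responder and 33.8 to 176 CPM (median 83.7) in the non-responder tumors (log2 fold change 3.09 ± 0.62 (SE), adjusted p = 0.00118). Both groups of tumors overlapped, with 7 and 6 of 10 responder values past the highest non-responder value. Cxcl16 rose by 0.45 ± 0.11. Of 11 PD-1 ligands and myeloid checkpoint genes 3 rose: Cd274, the gene of PD-L1, ranged over 56.0 to 311 CPM (median 146) in the responder and 11.1 to 113 CPM (median 47.4) in the non-responder tumors (log2 fold change 1.87 ± 0.42 (SE), adjusted p = 0.00334), and Cd86, a costimulatory ligand, rose by 0.74 ± 0.23 and the inhibitory receptor Pirb by 0.69 ± 0.16. Il18bp, the soluble inhibitor of interleukin-18 and itself an IFN-γ target, ranged over 30.9 to 125 CPM (median 53.6) in the responder and 9.92 to 30.8 CPM (median 20.7) in the non-responder tumors with no overlap (log2 fold change 1.97 ± 0.28 (SE), adjusted p = 2.1e-05). Of 5 Fc gamma receptor genes 3 rose. The activating receptor Fcgr4 ranged over 124 to 384 CPM (median 255) in the responder and 62.6 to 120.4 CPM (median 105) in the non-responder tumors, again with no overlap (log2 fold change 1.53 ± 0.27 (SE), adjusted p = 0.000419), and Fcgr1 (0.52 ± 0.16) and the signalling chain Fcer1g (0.39 ± 0.10) rose by less.

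**Figure D4:**
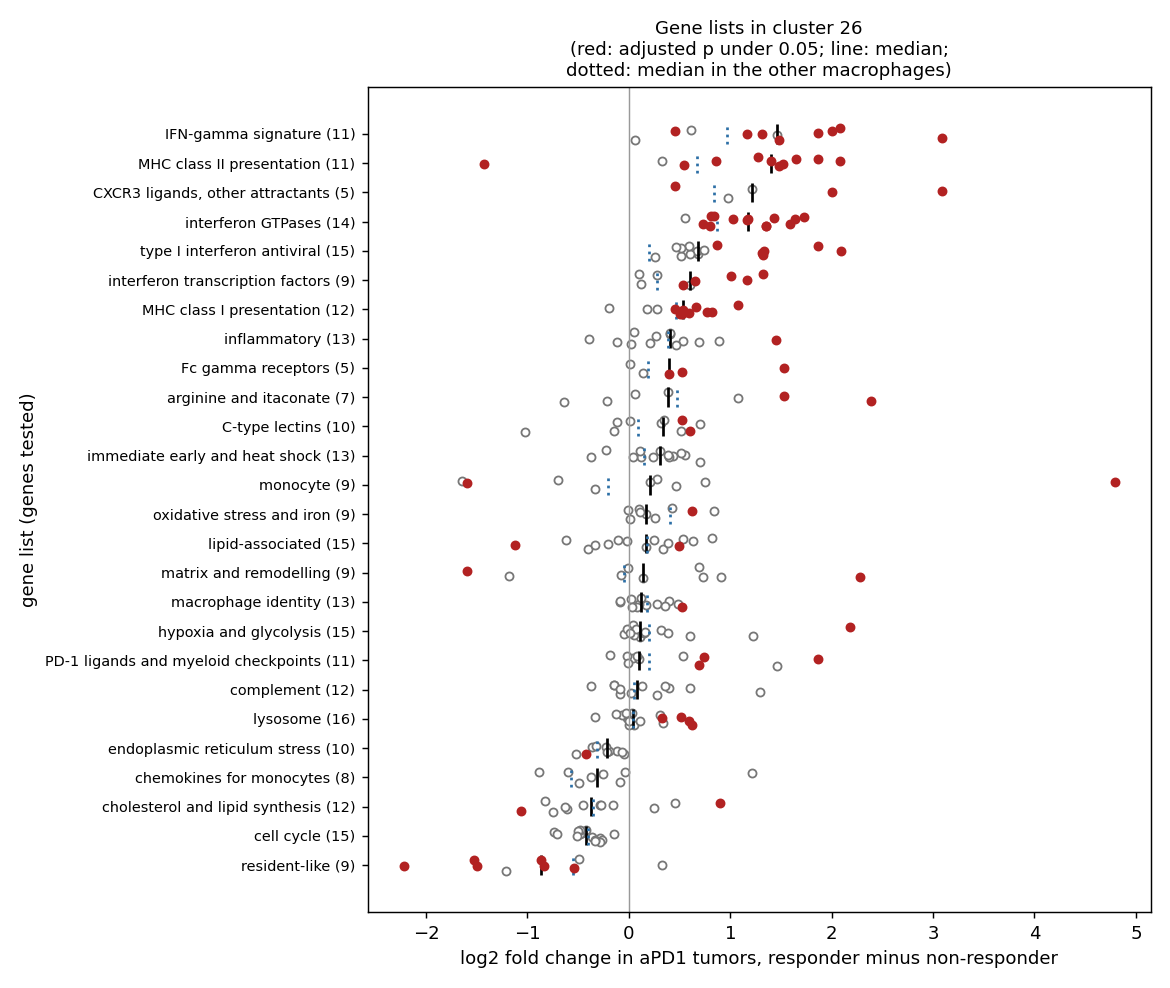
Each point is a gene of a list, placed by its log2 fold change in cluster 26 between responder and non-responder strains in aPD1 tumors; red points passed an adjusted p of 0.05, the black line is the median of the list, and the dotted blue line its median in the other macrophages. The medians of the interferon, MHC and GTPase lists lie right of 0, the resident-like list lies left with a median of −0.87, and most other medians lie near 0.

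Resident-like genes moved the other way: of 9 tested 6 were lower and 0 higher (median −0.87, and −0.55 in the other macrophages). Folr2, a folate receptor of resident macrophages, ranged over 5.45 to 21.4 CPM (median 11.1) in the responder and 17.6 to 96.6 CPM (median 67.4) in the non-responder tumors (log2 fold change −2.22 ± 0.32 (SE), adjusted p = 2.1e-05), with 6 of 10 responder tumors below every non-responder tumor. Stab1 ranged over 98.5 to 214 CPM (median 145) in the responder and 205 to 440.4 CPM (median 283) in the non-responder tumors (log2 fold change −0.84 ± 0.18 (SE), adjusted p = 0.00208), and Mrc1 over 119 to 408 CPM (median 239) in the responder and 328 to 764 CPM (median 445) in the non-responder tumors (log2 fold change −0.87 ± 0.21 (SE), adjusted p = 0.00732). In both, 9 of 10 responder tumors lay below every non-responder tumor. The factor XIII subunit F13a1 (−1.53 ± 0.43), Cbr2 (−1.50 ± 0.47) and the transcription factor Maf (−0.54 ± 0.15) fell too. Fn1, the gene of fibronectin, ranged over 99.8 to 449.6 CPM (median 250.3) in the responder and 525.9 to 1565 CPM (median 713) in the non-responder tumors and did not overlap (log2 fold change −1.60 ± 0.29 (SE), adjusted p = 0.000417). Spp1, osteopontin, fell by 1.13 on the log2 scale (adjusted p = 0.0159), with 2 of 10 responder tumors below every non-responder tumor. The Ly6 family gene Ly6i, which the cluster holds at a low level, rose by 4.79 ± 0.78 but spread from 8.07 to 1156 CPM over the responder tumors.

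Other lists held few calls. Of 7 arginine and itaconate genes 2 rose, Nos2, the inducible nitric oxide synthase (2.39 ± 0.69), and Acod1, which makes itaconate (1.53 ± 0.49); Nos2 was at most 32.4 CPM. Of 16 lysosome genes 4 rose (median 0.04), and of 13 inflammatory genes 1, Ptgs2 (1.45 ± 0.44). None of 12 complement genes, 15 cell cycle genes (median −0.42), 13 immediate early and heat shock genes or 8 chemokines for monocytes passed. By the smallest p outside these lists, Prcp, a lysosomal carboxypeptidase, ranged over 79.0 to 145 CPM (median 110.1) in the responder and 57.1 to 76.5 CPM (median 65.4) in the non-responder tumors (log2 fold change 0.89 ± 0.11 (SE), adjusted p = 4.74e-07), and Klra17, a receptor of the Ly49 family, rose by 2.48 ± 0.36. Acsl1, an acyl-CoA synthetase, ranged over 32.7 to 76.1 CPM (median 57.6) in the responder and 17.2 to 35.5 CPM (median 30.8) in the non-responder tumors (log2 fold change 1.06 ± 0.16 (SE), adjusted p = 5.55e-05), and Enpp4 rose by 1.64 ± 0.26. The sulfatase Sulf2 fell, with 12.5 to 36.0 CPM (median 22.5) in the responder and 47.1 to 80.5 CPM (median 59.7) in the non-responder tumors and no overlap (log2 fold change −1.31 ± 0.16 (SE), adjusted p = 1.02e-06), and Rgs18, a regulator of G protein signals, fell by 2.53 on the log2 scale. The predicted gene CAAA01118383.1 rose by 0.67 ± 0.11. Gm10260, whose sequence is near that of Rps18, was at 0 to 7.29 CPM in responder and at 569 to 1003 CPM in non-responder tumors, and Gm11127 and Gm11361 were lower likewise; reads of such copies cannot be placed with certainty.

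Of the 67 genes named in this comparison 50 kept an adjusted p under 0.05 whichever strain was left out, and 17 did not. Without CC075 the calls of Nlrc5 (0.49), Irf1 (0.85), Iigp1 (1.26), Cd86 (0.46), Pirb (0.46), Fcgr1 (0.28), Rsad2 (0.80), Nos2 (1.39), Acod1 (1.12), Ptgs2 (0.95), Csf3r (0.47), Cbr2 (−1.28), F13a1 (−1.70) and Spp1 (−0.89) ended, in log2 fold changes. Without CC036 those of Mrc1 (−0.69), Fcer1g (0.26), Fcgr1 (0.42), F13a1 (−1.39) and Cbr2 (−1.50) ended, and without CC001 that of Maf (−0.46). Without CC079 or CC080 the calls of Nlrc5, Irf1, Cd86, Fcgr1, Rsad2, Cbr2, Maf, Nos2, Acod1 and Ptgs2 ended, and without CC079 also those of Spp1 (−0.85), F13a1 (−1.53) and Csf3r (0.84); without CC002 those of Cd86, F13a1, Cbr2 and Maf. No direction turned.

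Markers of several other cell types were low in cluster 26, but not those of all. No gene of the T cell, CD8 T cell, migratory DC, fibroblast, MC38, mast cell or red cell lists reached the level needed for the test. The 7 T cell markers summed to 1.599 to 18.96 CPM in responder and 1.11 to 10.5 CPM in non-responder aPD1 tumors, and to 0.461 to 14.1 CPM and 2.03 to 98.4 CPM in isotype tumors, where the median of the non-responder tumors was 9.60 CPM. Red cell markers reached 416 CPM in 1 responder isotype tumor, against a median of 2.42 CPM in that group, and at most 11.2 CPM in the other groups. In aPD1 tumors the 5 NK cell markers summed to 0 to 17.8 CPM (responder) and 0 to 6.43 CPM (non-responder). All 77 calls between classes named here still passed when cells with a T or NK cell UMI were left out. Of the 6 cDC1 markers 5 were tested and 2 rose. Clec9a ranged over 3.80 to 19.8 CPM (median 10.2) in the responder and 0 to 7.76 CPM (median 1.31) in the non-responder tumors (log2 fold change 2.81 ± 0.48 (SE), adjusted p = 0.000306), and Cadm1 over 104 to 349 CPM (median 232) in the responder and 86.7 to 196 CPM (median 109) in the non-responder tumors (log2 fold change 0.99 ± 0.23 (SE), adjusted p = 0.00435). The defining cDC1 gene Xcr1 was at 1.66 CPM in the pooled cluster. The sum of the 6 markers was 262 to 626 CPM in responder and 263 to 398 CPM in non-responder aPD1 tumors, most of it from Cadm1 (188 CPM in the pooled cluster), Naaa (125) and Wdfy4 (58.9). The 6 cDC2 markers summed to 9.68 to 60.9 CPM in responder and 20.02 to 179.6 CPM in non-responder aPD1 tumors. The 6 plasmacytoid DC markers summed to 487 to 741 CPM and 399 to 749 CPM; most of that was Bst2, an interferon-induced gene (601 CPM in the pooled cluster), while Siglech, which defines those cells, was at 0.169 CPM. Of the 2 tested neutrophil markers Csf3r rose (1.04 ± 0.28). The part of these cells in the results was not tested.

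In isotype tumors 8 genes (0.081%) were higher and 22 (0.223%) lower in responder strains, 30 in all against 48 with the pool as a block. Most of those with the smallest p were copies or MHC genes: Gm10260, Gm11127, Gm11361, H2-Q1 and H2-Q2 were lower, and Rps18 was higher (0.72 ± 0.12). Folr2 ranged over 0 to 32.5 CPM (median 11.6) in the responder and 16.7 to 83.4 CPM (median 63.4) in the non-responder tumors (log2 fold change −1.73 ± 0.33 (SE), adjusted p = 0.00377), and without CC079 it no longer passed (−1.29). H2-DMb2 ranged over 8.59 to 18.3 CPM (median 11.7) in the responder and 6.56 to 118 CPM (median 42.7) in the non-responder tumors (log2 fold change −1.90 ± 0.32 (SE), adjusted p = 0.000574), and the nucleolar gene Noc2l rose by 0.52 ± 0.09. Both calls ended without CC001, and Noc2l also without CC080 (−1.83 and 0.46, and 0.42). Dcstamp was lower in responder strains as well, and its call also ended without CC001 (−3.25). No gene of the GTPase, chemokine, MHC class I or antiviral lists passed in isotype tumors, where their medians were 0.38, 0.17, 0.20 and 0.05. None of the 11 tested IFN-γ signature genes passed there (median 0.33), and of 11 tested MHC class II genes none was higher and 1, H2-DMb2, lower (median 0.41).

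Between treatments no gene passed: 0 of 9882 (0%) in responder strains, 0 (0%) in non-responder strains and 0 (0%) for the difference of the effects by edgeR, and 0 in each by DESeq2, with 518, 176 and 551 genes at an unadjusted p under 0.05 in edgeR. The medians of some lists had opposite signs in the classes. The IFN-γ signature genes had a median aPD1 effect of 0.46 in responder and −0.50 in non-responder strains, the GTPases of 0.55 and −0.22, the 5 listed chemokines of 0.85 and −0.74, and MHC class II genes of 0.34 and −0.35, beside 0.00 over all genes. Others had the same sign, such as the inflammatory list (0.14 and 0.11) and the cholesterol and lipid synthesis list (−0.12 and −0.01). These medians have no test of their own. Of the values tested, the difference of the aPD1 effects passed for the signature, though not with the pool as a block (adjusted p = 0.0781, exact sign flips), and for no single gene.

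The last comparison asked whether the difference between classes in cluster 26 was unlike that in the other macrophages of the same tumors. Counts of cluster 26 and of the other 9 clusters were fitted together with the tumor as a block, over 11288 genes. The log2 change of responder over non-responder strains, averaged over treatments, was higher in cluster 26 than in the other macrophages for 49 genes (0.434%) and lower, as a signed value, for 15 (0.133%). Scaled by library size these were 22 and 16, so that the higher made up 57.9% of the calls in place of 76.6%. MHC class II genes made up 6 of the 49, of 12 tested: Cd74 differed by 0.63 ± 0.12 (log2, SE; adjusted p = 0.00321), Ciita by 0.70 ± 0.15 (0.0124), H2-Eb1 by 0.64 ± 0.14 (0.0138), H2-Ab1 by 0.62 ± 0.13 (0.0137), H2-Aa by 0.56 ± 0.13 (0.0308) and H2-DMb1 by 0.51 ± 0.10 (0.00721). All 6 also passed with cluster 2 alone and with cluster 5 alone as the comparator. None of the 6 passed once CC079 was left out (0.31 to 0.59, adjusted p = 0.180 to 0.532) or once CC001 was left out (0.32 to 0.57, adjusted p = 0.107 to 0.345). Ciita, H2-Ab1 and H2-Aa also ended without CC080 (0.71, 0.59 and 0.56), and H2-Aa without CC075 (0.53). H2-Aa did not pass when scaled by library size (0.52). No gene passed among 15 GTPases, 12 MHC class I, 15 antiviral, 5 chemokine and 9 interferon transcription factor genes, whose median differences were 0.11, 0.09, 0.23, 0.29 and 0.14.

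The ratio of cluster 26 to the other macrophages varied between strains of 1 class. The log2 ratio of Cd74 in cluster 26 to the other macrophages was −0.05 ± 0.29 (SD, n = 20) in responder tumors and −0.64 ± 0.54 (n = 18) in non-responder tumors. By strain it was 0.11 ± 0.12 in CC001, −0.31 ± 0.34 in CC002 and −0.00 ± 0.24 in CC075, against −0.17 ± 0.39 in CC036, −0.65 ± 0.41 in CC080 and −1.10 ± 0.37 in CC079. The non-responder strain CC036 thus stood above the responder strain CC002, and CC079 lowest. CC036 shared no pool with CC002 or CC079, so these differences cannot be told apart from differences between pools. H2-Eb1 had the same order, from 0.09 ± 0.15 in CC001 to −1.17 ± 0.48 in CC079, with −0.15 ± 0.40 in CC036 and −0.36 ± 0.45 in CC002. For Ciita all 3 responder strains (−0.65 to −0.27) lay above all 3 non-responder strains (−0.999 to −0.74).

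**Figure D5:**
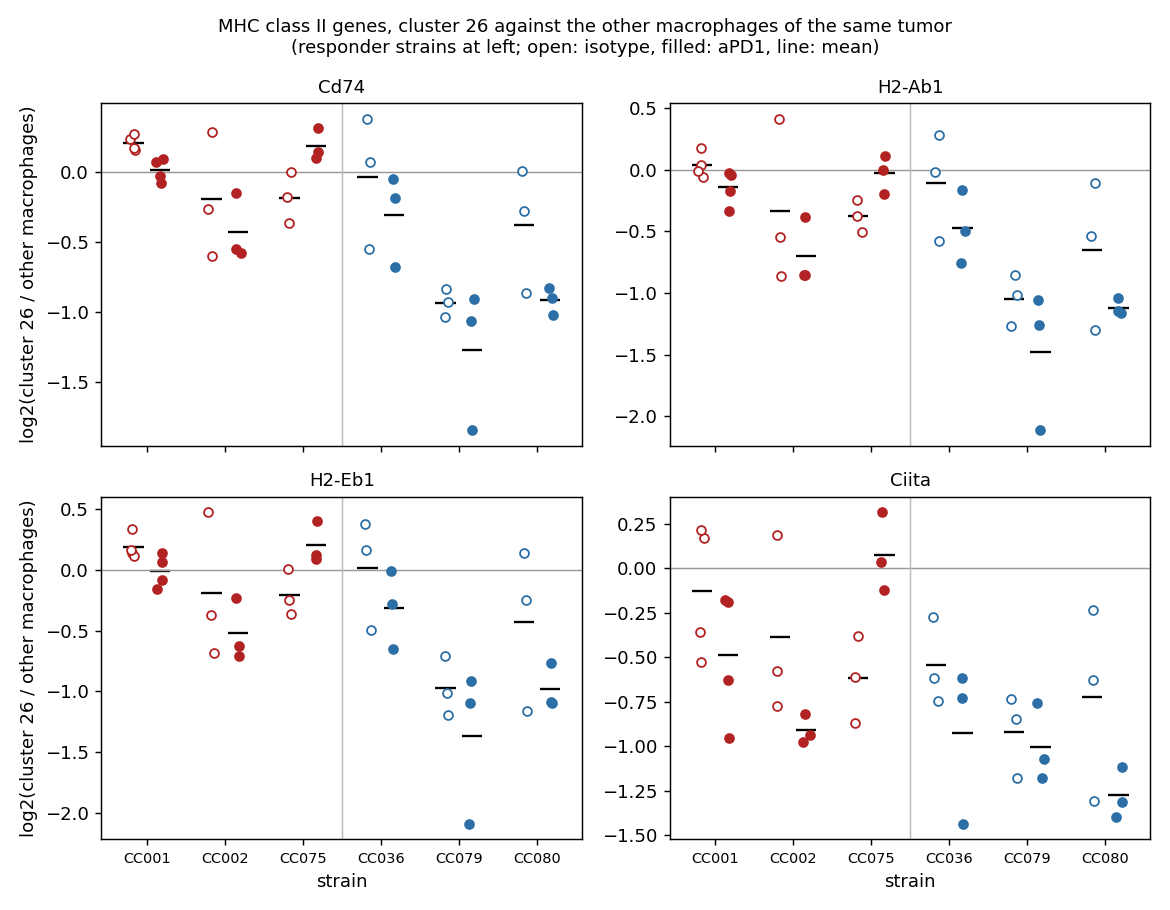
Each point is 1 tumor, placed by the log2 ratio of CPM in cluster 26 to CPM in the other macrophages of that tumor (10 CPM added to both) for 4 MHC class II genes, by strain; open points are isotype tumors, filled points aPD1 tumors, and lines are means. The CC079 and CC080 aPD1 tumors lie low in all 4 panels, and the CC036 tumors overlap those of the responder strains.

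Among the other genes whose change was higher in cluster 26 were Itgax, the CD11c integrin (0.57 ± 0.12), Itgb7 (0.86 ± 0.17), the C-type lectins Clec4b1 (0.94 ± 0.17) and Clec4a2 (0.29 ± 0.05), the receptor Sirpb1a (0.50 ± 0.10), the collagenase Mmp13 (1.51 ± 0.29), Cyp4f18 (0.51 ± 0.08) and the adaptor chains Tyrobp (0.20 ± 0.04) and Fcer1g (0.16 ± 0.04). For Clec4b1 the change was 0.27 in cluster 26 and −0.78 in the other macrophages. The change was lower in cluster 26 for F13a1 (−0.67 ± 0.15), the cholesterol exporter Abca1 (−0.44 ± 0.10), the desaturase Scd2 (−0.66 ± 0.15), Dcstamp (−1.61 ± 0.30), the lysosomal enzyme Hgsnat (−0.46 ± 0.10) and Gm10260 (−1.49 ± 0.16). Most of these changes were negative and of larger size in cluster 26: that of F13a1 was −0.87 in cluster 26 and −0.20 in the other macrophages, and that of Scd2 −0.91 in cluster 26 and −0.27 in the other macrophages. That of Abca1 was 0.02 in cluster 26 and 0.50 in the other macrophages. Of the 21 genes named in this comparison 3 (Clec4b1, Dcstamp and Gm10260) passed whichever strain was left out. The other 18 all ended without CC079, those with a positive difference at 0.19 to 1.42 and those with a negative one at −0.65 to −0.40, and 13 of them also ended without CC001.

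The aPD1 effect in responder strains differed between cluster 26 and the other macrophages for 2 genes (0.0177%). Saa3, an acute phase protein, differed by 3.50 ± 0.56 (adjusted p = 0.00122) and the lectin Fcna by 2.31 ± 0.46 (adjusted p = 0.0478). In cluster 26 Saa3 was at 0 to 9.08 CPM (median 2.13) in isotype and 0 to 47.4 CPM (median 4.62) in aPD1 tumors, which overlapped. In the other macrophages it was at 0.593 to 281 CPM (median 10.2) and 0.789 to 43.8 CPM (median 7.41), and the mean of the isotype tumors there (60.2 ± 109 CPM, SD) lay far above their median. Neither gene passed without CC001 (1.24 and 0.97) or against cluster 2 alone, where Saa3 stood at 1.83 and Fcna turned direction (−0.0358). Fcna also did not pass without CC002 (2.37, adjusted p = 0.383).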

How the data were processed

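Single cells of MC38 tumors were measured in 12 pooled droplet libraries (10x 5′), each demultiplexed by hashtag into isotype and aPD1 tumors of 2 strains. The authors aligned the reads to GRCm38 with Cell Ranger 6.1.1, removed cells above their limits for mitochondrial and ribosomal counts, corrected by processing date with harmony, clustered, and deposited raw UMI counts per gene and cell with a table of cell annotations. The submitters' processing notes also name Seurat 5.0.1 and mm10. The deposited counts were checked to be whole numbers, and the cluster numbers are the authors'. How doublets were treated is as the authors left it; none were called here.

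Counts were summed over the cells of cluster 26 per tumor, with a tumor being the strain and treatment of a pool and at least 20 cells required. Genes were tested with edgeR 4.0.16 (quasi-likelihood test, TMM, Benjamini-Hochberg adjustment), in R 4.3.3, with DESeq2 1.42.0 as an alternative; the comparison with the other macrophages had the tumor as a block, and the fits were tested on simulated data. Values per tumor were compared by exact permutation tests of the rank sum (100000 resamples where enumeration was too long), two-sided, adjusted over 20 tests. Pools 1 to 5 and pools 8 to 12 hold the classed strains and were also fitted apart. Genes named were taken from the up to 10 of smallest adjusted p in each direction, the up to 4 members of smallest p in each list and any other member that passed, and, for the cluster itself, the 15 highest and 15 lowest genes. Isotype and aPD1 tumors, and tumors of both classes, shared pools, so the pool was also fitted as a block. Gene lists and members were chosen with earlier results of these data known. p-values measure spread between tumors, and counting intervals are not given because tumors are the unit. Response class is the study's and not in the labels. Alternatives are in the closing section. Promoters came from RefSeq on GRCm38.p6.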

Additional observations from a re-analysis of the deposited data

Results flagged for a closer look

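In these comparisons the effect under 1 contrast differed between 2 sets of cells or 2 classes of strains by a test of the difference itself. The aPD1 effect on the IFN-γ signature of cluster 26 differed between classes by 0.65, a call that was lost with the pool as a block (0.58, exact sign flips p = 0.0156, adjusted 0.0781). With 8 blocks exact sign flips cannot go below p = 0.00781, and the same difference in the other macrophages was not tested. The class difference differed between cluster 26 and the other macrophages for 64 genes and the aPD1 effect in responder strains for 2 genes, by edgeR's quasi-likelihood test. The 64 fell to 10 without CC079 and to 29 without CC001, and 18 of the 21 genes named here ended without CC079. The log2 change of responder over non-responder strains in cluster 26, minus that in the other macrophages, was 0.63 for Cd74, 0.70 for Ciita, 0.62 for H2-Ab1, 0.64 for H2-Eb1, 0.56 for H2-Aa and 0.51 for H2-DMb1. It was 0.51 for Cyp4f18, 0.29 for Clec4a2, 0.94 for Clec4b1, 0.57 for Itgax, 0.86 for Itgb7, 0.16 for Fcer1g, 0.20 for Tyrobp, 0.50 for Sirpb1a and 1.51 for Mmp13. It was −0.67 for F13a1, −0.44 for Abca1, −0.66 for Scd2, −1.61 for Dcstamp, −1.49 for Gm10260 and −0.46 for Hgsnat. The aPD1 effect in responder strains differed by 3.50 for Saa3 and 2.31 for Fcna, and neither passed without CC001 (1.24 and 0.97) or against cluster 2 alone.

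In 11 of 150 groups of 4 to 10 tumors that were examined, 1 tumor lay far from the others by Dixon's ratio, where chance alone gives about 1 in 20. The CC001 aPD1 tumor of pool 2 was the highest responder tumor for Cd74 (19149 CPM), H2-Ab1 (6824 CPM) and H2-Eb1 (7460.3 CPM). Among non-responder aPD1 tumors, CC036 tumors were the highest for Clec9a (7.76 CPM), F13a1 (504 CPM), Nos2 (14.7 CPM) and Rsad2 (19.96 CPM), and a CC080 tumor for Gm11361 (33.6 CPM). Among responder aPD1 tumors, CC075 tumors were the highest for H2-Q1 (0.389 CPM) and Maf (503 CPM), and a CC001 tumor for Rgs18 (7.61 CPM).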

How the results depend on the processing

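Of 1531 values of the 100 results on named genes under the alternatives, 1277 kept direction and side of the threshold, 253 kept the direction but lost the threshold, and 1 turned, Fcna against cluster 2 alone (−0.0358). Summing the tumors of a strain and treatment ended 70 of 77 calls between classes; it leaves 3 samples a group. With the pool as a replicate block, no named call between classes was lost, whereas 25 of 76 were in pools 1 to 5 alone, 41 of 74 in pools 8 to 12 alone and 6 of 77 without the 2 tumors of 1 animal identifier.

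The tests within pools have fewer tumors or pairs. Pools 1 to 5 and pools 8 to 12 also hold different strains: CC079 stands only in the former, CC036 and CC075 only in the latter. Number of tumors and strains cannot be told apart there. With the pool as a replicate block the signature's class difference in aPD1 tumors was 0.88. Its aPD1 difference in responder strains, over pairs of a strain and pool, was 0.37. Its difference of effects was 0.58, and the Cxcl9 share's class difference was 29.0 percentage points. All of these were past the threshold no longer. In pools 1 to 5 alone these were 0.91, 0.32, 0.59 and 34.7, and in pools 8 to 12 alone 0.73, 0.42, 0.70 and 16.6, none past it. The aPD1 difference of the signature in responder strains also lost it without 3 MHC genes (0.36) and with a pseudocount of 10 (0.29); the cause was not tested. The Cxcl9 share's difference of effects (18.9) passed only with a test of means.

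Leaving out 1 strain in turn, the share of all cells ranged, in percentage points, over −0.290 to 9.04 between classes in isotype tumors, −2.03 to 3.65 in aPD1 tumors, −5.88 to 4.89 between treatments in responder and 0.766 to 4.24 in non-responder strains, with a difference of effects of −8.32 to 2.45. The share of macrophages ranged over 1.16 to 12.4, 0.489 to 6.44, −6.95 to 6.50, −1.40 to 3.63 and −8.17 to 5.28 in the same order. The signature ranged over −0.0457 to 0.35, 0.69 to 0.98, 0.32 to 0.46, −0.36 to −0.21 and 0.58 to 0.74. The Cxcl9 share ranged over 0.278 to 12.97, 23.4 to 31.1, 4.46 to 11.7, −14.5 to −5.43 and 14.0 to 23.9.

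Counts of genes also moved. Between classes in aPD1 tumors 267 passed in pools 1 to 5, 149 in pools 8 to 12, 8 with tumors summed, and 403 to 895 without 1 strain. In isotype tumors 48 passed with the replicate block, 6 in pools 8 to 12, 3 with tumors summed, and 14 to 38 without 1 strain. Averaged over treatments 750 passed, and 343, 286, 28 and 392 to 798 in the settings first named. Without 1 strain the aPD1 effect gave 0 to 1 genes in responder strains, 0 to 0 in non-responder strains and 0 to 1 for the difference. The class difference between cluster 26 and the other macrophages passed for 38 genes with library size, 102 against cluster 5 alone, and 10 to 96 without 1 strain (10 without CC079, 29 without CC001). The aPD1 effect there passed for 0 genes against cluster 2 alone, 0 against cluster 5 alone, 0 to 2 without 1 strain, and 1 with at least 50 cells a tumor. This last alternative and the strains left out of that comparison were added after seeing the data.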

Other observations

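B6 and CC007 tumors, which stand in neither class, gave values of cluster 26 that belong in no comparison. The IFN-γ signature was 4.80 to 5.59 in 3 B6 isotype tumors and 4.90 to 5.33 in 3 B6 aPD1 tumors. H2-Eb1 was at 2930.4 to 4947 CPM in B6 isotype and 2164 to 4634 CPM in B6 aPD1 tumors, and Cd74 at 8870.1 to 14824 and 6592 to 14599.9 CPM. Ciita was at 40.6 to 49.5 CPM in B6 isotype and 45.9 to 66.6 CPM in B6 aPD1 tumors, and at 57.3 to 76.8 CPM in 2 CC007 isotype tumors and 117 CPM in 1 CC007 aPD1 tumor. Fn1 was at 54.9 to 490.3 CPM in B6 isotype and 473 to 549.6 CPM in B6 aPD1 tumors, and at 411 to 415 CPM in CC007 isotype tumors and 866 CPM in the CC007 aPD1 tumor. Folr2 was at 17.3 to 39.2 and 26.1 to 32.4 CPM in B6 tumors. The share of cluster 26 among macrophages was 7.22 to 24.9% in B6 isotype and 15.6 to 26.4% in B6 aPD1 tumors.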
